A study of Mus musculus with 3 samples.

Results

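The open regions of mouse chromosome 12 outside the immunoglobulin heavy chain locus (*Igh*) were the 1819 merged ATAC-seq peak regions that lay before 113 Mb of the mm10 build, of 50965 regions on all chromosomes. They were picked on a readout of the same lists, since stretches of this chromosome had a lower local background in the lists of the K43M genotype. All differences between the genotypes on this chromosome are therefore descriptions, and no test was run on them. With 2 lists against 2 the smallest two-sided p of an exact permutation test would be 0.33. A further 236 regions lay from 113 Mb on and were left out. Just inside this limit, the last region with a peak in all 4 lists had fold enrichments of 8.13, 6.34, 10.7 and 8.92. The first region beyond the limit had 11.9, 11.3, 13 and 11.1, in the order WT unnumbered, WT replicate 2, K43M replicate 1 and K43M replicate 2, which is kept for every series of 4 values.

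The 4 libraries were from 4 mouse pre/pro-B-cell lines, with 1 library per line and 2 lines per genotype. Bone marrow cells of C57BL/6 mice were transduced with a retrovirus carrying BCR-ABL(p185), so that this oncogene was also present in the wildtype controls. The wildtype lines carried *Cdk6* +/+ (WT) and the other lines *Cdk6* KM/KM, with the kinase-inactive K43M form of CDK6 on both alleles (K43M). Each line is a separate outgrowth of transduced cells, so that genotype and line cannot be told apart beyond the pair of lines per genotype. No sample label gave the group of the list called WT unnumbered, which was assigned from the design text of the series and belongs to a line deposited earlier.

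ATAC-seq inserts sequencing adapters into DNA that is free of nucleosomes, so that promoters and enhancers in use stand out as peaks. Read ends between peaks form a background that depends on how many copies of a stretch of DNA the cells hold and on how accessible each copy is. Peak lists cannot tell these apart. Chromosome 12 carries, besides *Igh*, the genes of general factors such as *Hif1a* (the oxygen-regulated subunit of HIF-1), *Max* (the dimerization partner of MYC), *Fos* (an AP-1 subunit), *Yy1* (a zinc finger transcription factor with roles in B cell development) and *Akt1* (a kinase downstream of PI3K).

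The sequences printed next cover the bases around the best summit of 6 regions that stand for the classes described next. *Ppm1a* and *Max* are promoters with a peak in all 4 lists. The regions in *Cep128* and *Gm36660* had peaks only in both WT lists, and those at *Rhob* and *Map3k9* only in both K43M lists. Sequences are from GRCm38 and on the plus strand, and capitals mark matches to the motifs named after them.
Ppm1a, chr12:72761032-72761182: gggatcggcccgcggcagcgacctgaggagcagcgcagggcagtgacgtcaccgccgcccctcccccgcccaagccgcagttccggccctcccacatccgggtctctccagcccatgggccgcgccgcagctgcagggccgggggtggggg
Max, chr12:76962288-76962438: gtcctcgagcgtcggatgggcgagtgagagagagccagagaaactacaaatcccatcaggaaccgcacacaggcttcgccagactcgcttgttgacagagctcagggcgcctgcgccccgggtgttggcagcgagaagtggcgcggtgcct
Cep128, chr12:91183581-91183731: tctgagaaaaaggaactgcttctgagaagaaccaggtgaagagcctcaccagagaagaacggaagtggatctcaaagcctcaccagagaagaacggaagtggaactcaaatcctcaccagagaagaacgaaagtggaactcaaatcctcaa
Gm36660, chr12:80021146-80021296: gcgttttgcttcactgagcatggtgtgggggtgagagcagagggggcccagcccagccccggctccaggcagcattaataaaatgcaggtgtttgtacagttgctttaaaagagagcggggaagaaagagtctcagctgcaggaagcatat
Rhob, chr12:8500035-8500185: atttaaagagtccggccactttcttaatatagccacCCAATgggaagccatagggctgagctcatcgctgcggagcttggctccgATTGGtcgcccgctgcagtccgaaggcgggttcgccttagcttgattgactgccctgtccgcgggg
Map3k9, chr12:81781178-81781328: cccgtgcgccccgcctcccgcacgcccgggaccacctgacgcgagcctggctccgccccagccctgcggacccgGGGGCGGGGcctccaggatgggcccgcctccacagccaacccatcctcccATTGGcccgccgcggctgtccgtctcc

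The *Ppm1a* summit lay in an intron, 104 bp from a further start of the gene. The *Max*, *Rhob* and *Map3k9* summits lay before the annotated start, at 162, 101 and 78 bp. The *Cep128* summit was intronic, 63 bp from an internal start, and its sequence held 3 copies of a 16-base word, the first pair of them 34 bases apart. The *Gm36660* summit was in an exon of that noncoding gene, 91587 bp from the nearest start of a protein-coding gene, *Zfp36l1*. GC content was 62.9% at *Max*, 77.5% at *Ppm1a*, 78.8% at *Map3k9* and 58.3% at *Rhob*, but 46.4% at *Cep128* and 53.6% at *Gm36660*. The capitals at *Rhob* mark CCAAT or its reverse complement ATTGG, the box bound by NFY, in 2 places, and at *Map3k9* they mark GGGGCGGGG, an SP1 site, and ATTGG.

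Motif letters were also counted up to 100 bases on either side of the best summit of every region, on both strands. CCAAT occurred in 20.3% of the 1819 members and in 22.4% of the regions of all chromosomes. The SP1 letters occurred in 5.99% and 5.93%, the ETS letters CCGGAAGT in 1.43% and 2.23%, the NRF-1 core GCGCATGC in 1.43% and 1.37%, the AP-1 letters TGAGTCA or TGACTCA in 6.38% and 5.93%, and the RUNX letters TGTGGTT in 10.6% and 9.72%. Members in all 4 lists were rich in CpG more often than the others. CpG-rich sequence, with over 50% GC and an observed to expected CpG ratio over 0.6 over 500 bases on either side, lay at 38.7% of the 702 members in all 4 lists, at 1.89% of the 106 only in WT and at 12.9% of the 116 only in K43M. Over all chromosomes these shares were 36.4%, 2.18% and 10.5%.

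As a check of the labelled cell type, 7 promoters of B-lineage genes were examined. A promoter peak in all 4 lists was found at 6 of them, *Pax5*, *Ebf1*, *Cd79a*, *Vpreb1* and *Igll1* included, and *Cd79b* in all but K43M replicate 2. Of 5 T cell genes only *Lck* had a peak, in all 4 lists. Of the 12 myeloid, erythroid and other tissue genes none had a peak in all 4 lists, while *Lyz2* had one in both WT lists and *Gfap* in 1 list. The lists held 33038, 34248, 39038 and 34752 peaks. The genome-wide background that MACS2 used, recovered from the deposited values, was 65.3, 56.7, 55.1 and 48.4 read ends per 10 kb and takes the place of the unknown depth. Over autosomal regions in all 4 lists the median local background was 181, 165, 171 and 146 read ends per 10 kb. The raw values of single genes given below follow these levels of the lists, while log2 differences are relative to them.

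The 4 lists had a peak in 1164, 1178, 1265 and 1141 members. As a share of all peaks of the list, the peaks in members were 3.687%, 3.606%, 3.371% and 3.499%. Both K43M shares thus lay below both WT shares, although K43M replicate 1 had a peak in the most members. In all 4 lists were 702 members, or 38.6%, against 41.2% of all regions. Peaks only in both WT lists were found at 106 members, 5.83% against 4.51% of all regions. Peaks only in both K43M lists were found at 116 members, 6.38% against 7.64%. Another 76 members lacked a peak only in K43M replicate 2, 4.18% against 3.74%, and 40 lacked a peak only in K43M replicate 1, 2.20% against 1.38%. Per 100 regions in all 4 lists, the chromosome held 15.1 regions only in WT and 16.5 only in K43M, and the other autosomes 10.7 and 18.5. With the same number of peaks taken from each list, 128 members were only in WT and 91 only in K43M, which turns the order of the counts. K43M replicate 1 has the longest list. The regions in all 4 lists were mostly wide and often promoters, with a median width of 812 bp and 50.3% at a promoter. Those only in WT had a median of 319 bp and 17 of 106 at a promoter, and those only in K43M 366 bp and 23.3%. The median of the lower percentile by peak q-value, over the lists with a peak, was 53.8 for members in all 4 lists, 19.7 for those only in WT and 22.5 for those only in K43M, so that the regions of a single genotype were mainly weak peaks of their lists.

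**Figure D1:**
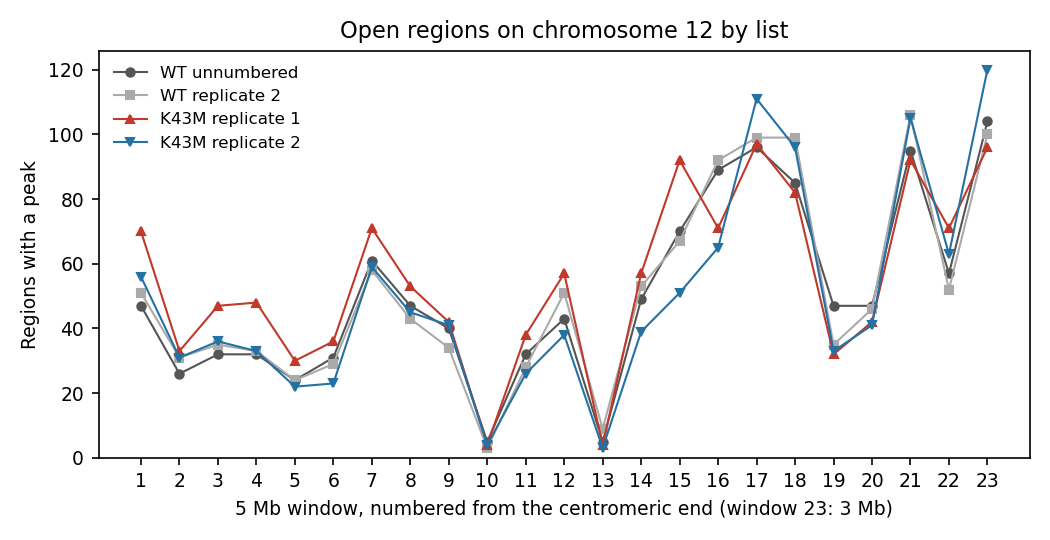
Open regions with a peak in each list (y axis) in 5 Mb windows of chromosome 12, numbered from the centromeric end (x axis), with the last window cut at 113 Mb. K43M replicate 2 is the lowest list in windows 5, 6, 11 to 16 and 20, and K43M replicate 1 is the highest in windows 1 to 9, 11, 12, 14, 15 and 22.

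In 5 Mb windows the number of members ranged from 9 in window 10 and 11 in window 13 to 155 in window 23, the last 3 Mb before the limit. Window 10 runs from 45 to 50 Mb and window 13 from 60 to 65 Mb. They held 4 and 5 protein-coding genes, whereas window 21 held 66 genes and 153 regions. In window 15, K43M replicate 1 had 92 regions and K43M replicate 2 had 51, with 70 and 67 in the WT lists. In window 16 both K43M lists fell short of the WT lists, with 71 and 65 regions against 89 and 92. In window 17 K43M replicate 2 held 111 regions, more than the 96, 99 and 97 of the others.

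The local background was compared at the 702 members with a peak in all 4 lists. It was recovered for each peak in read ends per 10 kb and expressed on the log2 scale relative to the median over all autosomes of the same list. The chromosome medians were 0.01 in WT unnumbered and 0.00 in WT replicate 2, but -0.28 in K43M replicate 1 and -0.18 in K43M replicate 2. Both K43M values lay below both WT values, and the mean difference of K43M minus WT was -0.23. The same medians of the summit pileup, the number of fragments stacked at the summit, were 0.00, -0.04, -0.12 and -0.20, with a difference of -0.14. The local window holds the reads of the peak itself, so that background and pileup are not independent.

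Along the chromosome the lower background was not in the same place in both K43M lines. By the rule that both K43M medians lie below both WT medians, with a mean difference of -0.2 or lower, 5 of the 21 windows with at least 10 shared regions were low, namely windows 9, 16, 17, 18 and 21. On the other autosomes 17% of 423 windows met this rule. Each K43M list was then taken alone, as the median over regions of its difference from the mean of the WT lists. K43M replicate 1 was at -0.3 or lower in 8 windows, namely 9, 16 to 21 and 23, against 7.33% of the windows of the other autosomes. K43M replicate 2 was at -0.3 or lower in 5 windows, 11, 12, 14, 15 and 16, against 7.57%. Most low windows elsewhere lay on chromosomes 13 and 18, which also had lower K43M medians, with 26 of the 31 in K43M replicate 1 and 29 of the 32 in K43M replicate 2. Only window 16, from 75 to 80 Mb, was low in both lists by this limit, at -0.51 and -0.79. In window 15 the K43M lists lay on opposite sides of the WT mean, at 0.19 and -0.70. In window 18 they lay at -0.53 and -0.10.

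**Figure D2:**
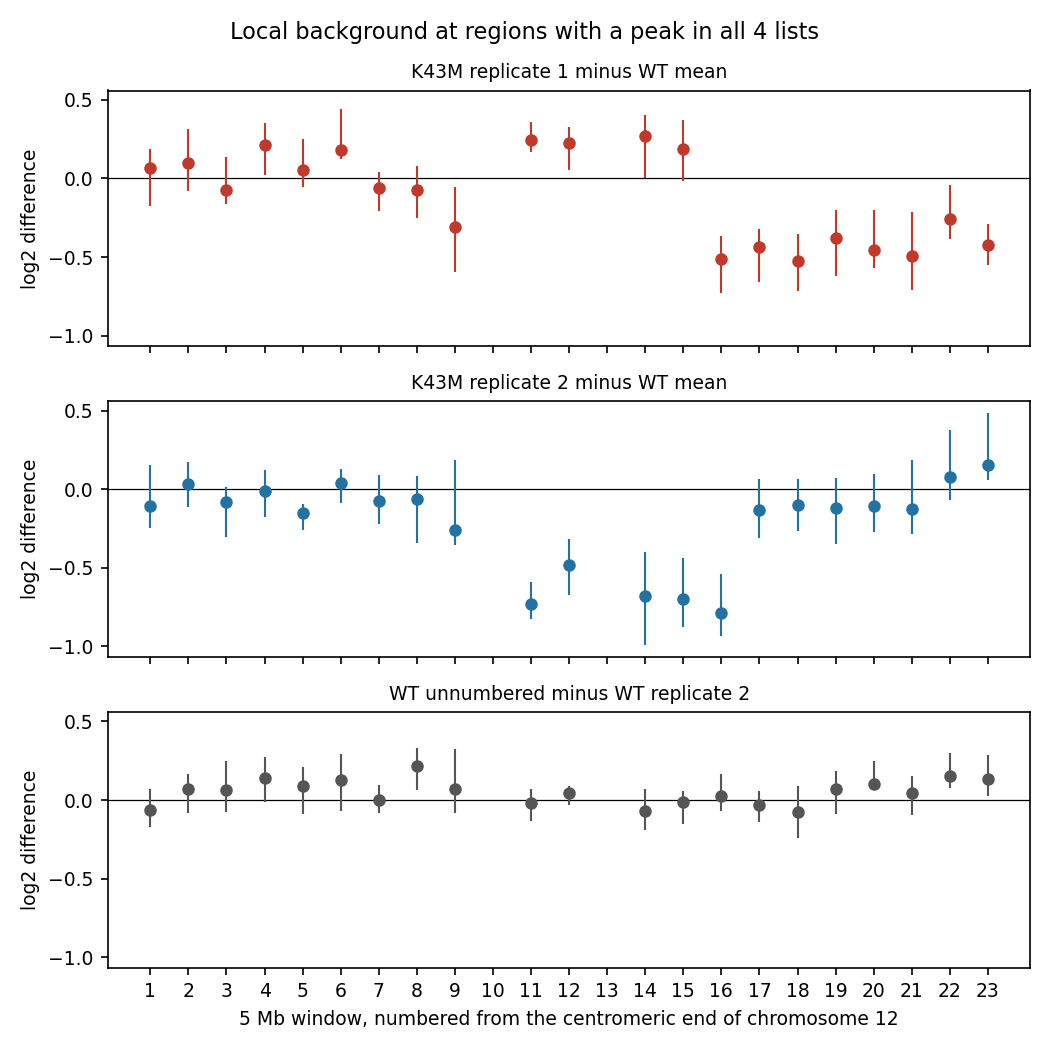
Local background at members with a peak in all 4 lists, as the log2 difference (y axis) of each K43M list from the mean of the WT lists and of the WT lists from each other, in 5 Mb windows numbered from the centromeric end (x axis). Points are medians and bars the interquartile range over regions, and windows with fewer than 10 such regions are left out. K43M replicate 1 lies between -0.53 and -0.26 from window 16 on, and K43M replicate 2 between -0.79 and -0.48 in the plotted windows from 11 to 16 and between -0.26 and 0.15 in all others, while the WT lists stay within 0.22 of each other.

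The places of the changes were sought by dividing the members in all 4 lists, in chromosome order, into runs with the smallest sum of absolute deviations from the run medians. For K43M replicate 1 a division into 2 runs lowered this sum by 28.0%. The change lay between shared regions that end at 73.78 and start at 73.88 Mb, between *Prkch* and *Hif1a*. For K43M replicate 2 a division into 3 runs lowered the sum by 24.2%. Its low run began between 48.51 and 51.35 Mb, in a stretch with *Prkd1* and few regions, and ended between 80.74 and 80.79 Mb, at *Ccdc177*. Divisions that cost up to 1% more placed the change of K43M replicate 1 between 73.59 and 75.73 Mb. They placed those of K43M replicate 2 between 44.24 and 51.83 Mb and between 80.64 and 81.66 Mb. The difference between the WT lists gave no comparable division, as 2 runs lowered its sum by 3.5% and 3 runs by 4.0%. The numbers of runs were chosen after the values had been seen.

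The 3 places divide the chromosome into 4 stretches. The first stretch held 584 members, the second 297, the third 156 and the fourth 782, of which 198, 125, 65 and 314 were in all 4 lists. In the first stretch, up to 48.51 Mb, the median background differences from the WT mean were 0.02 in K43M replicate 1 and -0.08 in K43M replicate 2. Window 9 within it was lower, at -0.31 and -0.26. In the second, from 51.35 to 73.78 Mb, they stood at 0.23 and -0.65. In the third, from 73.88 to 80.74 Mb, both were low, at -0.49 and -0.79, and 61 and 62 of the 65 shared regions were below the WT mean. In the fourth, from 80.79 Mb on, they stood at -0.43 and -0.01. K43M replicate 2 was not level there, as a division into 4 runs put its first 210 shared regions at -0.11 and the last 104 at 0.15. The WT lists also differed by 0.15 over the last 108 shared regions when their difference was divided into 2 runs. In the second and the fourth stretch the K43M lists thus lay apart from each other. The borders were placed on these same differences, so the medians and counts describe the stretches and do not test them. Regions of a list are not replicates of a genotype. K43M replicate 1 minus K43M replicate 2 was 0.10, 0.90, 0.21 and -0.42 in the 4 stretches, while WT unnumbered minus WT replicate 2 was 0.06, 0.00, 0.01 and 0.06.

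The summit pileup moved with the background. In the third stretch the median pileups over shared regions were 39, 37, 30 and 21 fragments, and the pileup differences from the WT mean were -0.38 in K43M replicate 1 and -0.57 in K43M replicate 2. In the second stretch they were 0.19 and -0.54, and in the fourth -0.40 and 0.03. The fold enrichment sets the summit against the background, with a constant added to each. At the shared regions its medians stayed near the WT mean in every stretch. The differences of fold enrichment were 0.01 and -0.08 in the third stretch and 0.00 and -0.08 in the second. Regions that lost their peak in a K43M list do not enter these values. Fold enrichment is also not independent of pileup and background, from which it is computed. The lower levels were seen at promoters and elsewhere. In the third stretch the background differences were -0.64 and -0.88 at 33 promoter regions and -0.40 and -0.52 at 32 other regions. Away from promoters the values of the K43M lists were bounded more often by the genome-wide background, which MACS2 uses as a minimum. It was reached at 9.38% and 0% of these 32 regions in the WT lists and at 21.9% and 25% in the K43M lists. Where a K43M list alone is at this minimum, the difference is a lower limit in size.

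**Figure D3:**
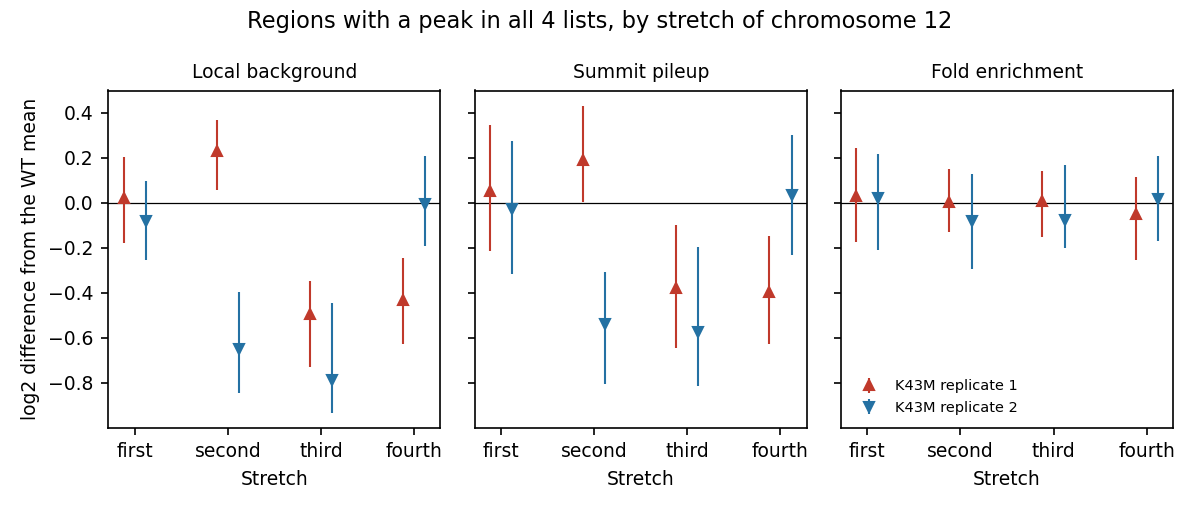
Local background, summit pileup and fold enrichment (3 panels) of each K43M list as the log2 difference from the mean of the WT lists (y axis), at members with a peak in all 4 lists in each stretch of the chromosome (x axis). Points are medians and bars interquartile ranges over regions. Background and pileup leave 0 in the same stretches of the same list, and fold enrichment stays within 0.08 of 0.

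Genes on either side of the changes show the same in read ends per 10 kb. *Prkch*, a protein kinase C expressed in lymphocytes, is the last gene before the change of K43M replicate 1. Its promoter peak had a background of 253, 228, 312 and 103, so that K43M replicate 1 was the highest and K43M replicate 2 the lowest of the lists. *Hif1a*, the next gene, had 295, 273, 207 and 132, with both K43M lists below both WT lists. *Snapc1*, a subunit of the complex that activates small nuclear RNA genes, had 168, 164, 134 and 77. At the other change, the promoter shared by *Slc39a9*, a zinc transporter, and *Erh* had 290, 248, 198 and 117. *Susd6*, beyond it, had 319, 284, 241 and 260, and *Srsf5*, a splicing factor, had 346, 312, 214 and 238. K43M replicate 2 was the lowest list at *Erh* and not at *Susd6* and *Srsf5*. It was again the lowest at other genes farther on, such as *Sptlc2*, with 370, 349, 269 and 243.

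Within the second stretch the order of *Prkch* recurred. *Psma6*, a proteasome subunit, had 235, 194, 303 and 129 read ends per 10 kb, and *Nfkbia*, the inhibitor of NF-kB, had 273, 228, 302 and 144. *Rps29*, a ribosomal protein gene, had 309, 309, 345 and 135, and *Ppm1a*, a phosphatase, had 415, 387, 464 and 184. K43M replicate 1 was the highest and K43M replicate 2 the lowest at all of these. The pileup of *Rps29* was 72, 83, 89 and 38 fragments and its fold enrichment 10.2, 11.7, 11.4 and 10.5. Although the peak in K43M replicate 2 was built from fewer fragments, its fold enrichment lay between those of the WT lists.

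Within the third stretch both K43M lists were low. *Max* had 400, 358, 234 and 162 read ends per 10 kb and pileups of 113, 92, 55 and 42. *Mthfd1*, an enzyme of folate metabolism, had 314, 305, 219 and 152, and its fold enrichment of 15.2, 13.2, 14.9 and 14.4 was among the highest in all lists. *Mpp5*, a scaffold protein of cell polarity, had 320, 288, 226 and 134. *Fut8*, a fucosyltransferase, had 415, 334, 222 and 150. *Rad51b*, a gene of homologous recombination, had 300, 244, 188 and 123 at the promoter that it shares with *Zfyve26*. *Zfp36l1*, an RNA-binding protein that limits B cell proliferation, had 352, 315, 275 and 232. Against this order stood *Hspa2*, a heat shock protein gene, with 245, 175, 229 and 169, where K43M replicate 1 lay between the WT lists.

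Within the fourth stretch K43M replicate 1 was low. *Yy1* had 752, 595, 502 and 538 read ends per 10 kb, and *Hsp90aa1*, a chaperone gene, had 416, 349, 297 and 358. K43M replicate 2 did not exceed both WT lists at these genes in raw read ends, but its list has the lowest median level over the autosomes. In the first stretch *Odc1*, the enzyme that opens polyamine synthesis, had 315, 275, 344 and 245, *Rrm2*, a ribonucleotide reductase subunit, had 490, 363, 431 and 299, and *Id2*, an inhibitor of basic helix-loop-helix factors, had 261, 207, 358 and 265. K43M replicate 1 was not the lowest list at any of these, whereas K43M replicate 2 was the lowest at *Odc1* and *Rrm2*.

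**Figure D4:**
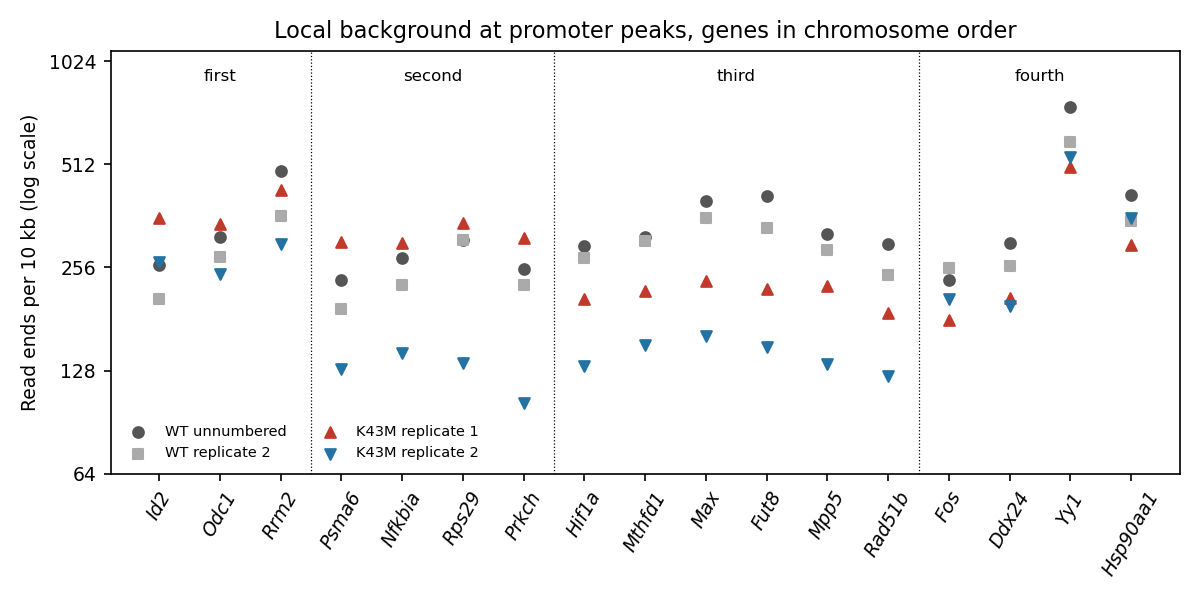
Local background in read ends per 10 kb (y axis, log scale) at the promoter peak of selected genes (x axis). Each list has 1 point per gene, and dotted lines separate the stretches. Genes are in chromosome order except *Id2*, which is plotted first but lies after *Odc1* and *Rrm2*. Among the genes plotted, K43M replicate 2 is the lowest list from *Psma6* to *Rad51b* and also at *Odc1*, *Rrm2* and *Ddx24*. K43M replicate 1 is above both WT lists at *Id2*, *Odc1* and from *Psma6* to *Prkch*. It is below both from *Hif1a* on, while *Hspa2*, not plotted, departs from this.

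The share of WT regions that kept a peak differed between the stretches, but not always with the background. Of the 924 members with a peak in both WT lists, 84.2% had one in K43M replicate 1 and 80.3% in K43M replicate 2. On the autosomes other than 12, 13 and 18, these shares were 89.4% and 84.9%. In the second stretch 95.0% of 159 such regions were kept in K43M replicate 1 and 78.6% in K43M replicate 2. In the third, 73 (76.8%) and 72 (75.8%) of 95 were kept, and in the fourth 328 (80.0%) and 340 (82.9%) of 410. In the first stretch the shares were 86.9% and 78.8% of 260, so that K43M replicate 2 kept about as few regions there, with a background near WT, as in the second. Among regions above the median peak of both WT lists, the kept shares were 97.6% and 97.6% in the first stretch, 100% and 95.9% in the second, 86.5% and 90.4% in the third and 97.7% and 96.8% in the fourth. Of the weaker regions 76.7% and 60.9% were kept in the first stretch, 86.9% and 50.8% in the second, 65.1% and 58.1% in the third and 60.3% and 67.5% in the fourth, against 78.5% and 69.6% on the autosomes other than 12, 13 and 18. Most losses were therefore of weak peaks, and the third stretch also lost stronger ones. Promoters were kept more often than other regions, with 94.4% and 91.7% of 36 against 66.1% and 66.1% of 59 in the third stretch.

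**Figure D5:**
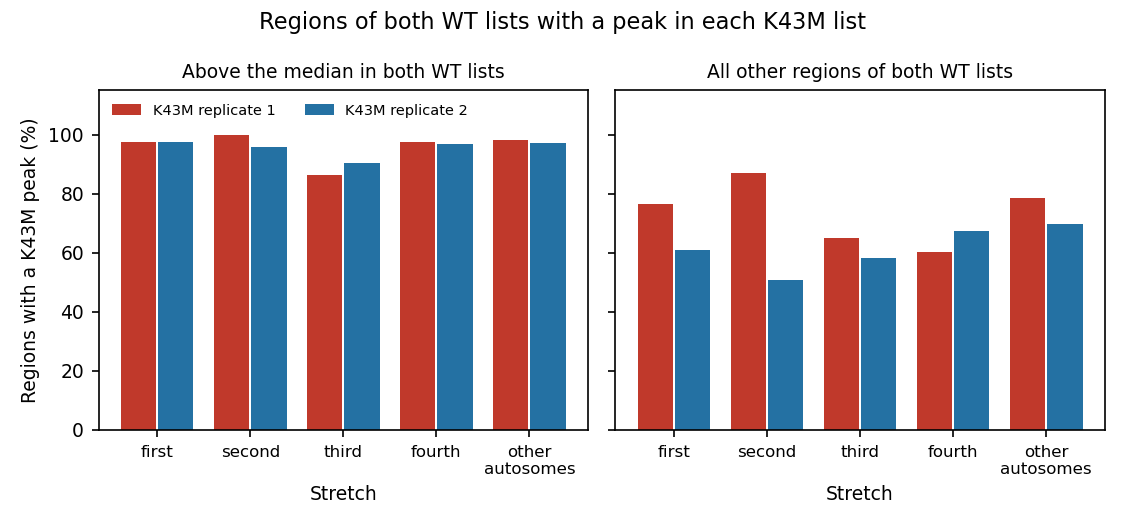
Members with a peak in both WT lists that also had a peak in each K43M list (y axis, %), by stretch (x axis) and for autosomes other than 12, 13 and 18, separately for regions above the median peak of both WT lists (left) and all other regions (right). Each bar is 1 list. K43M replicate 2 is lowest for weak regions of the second stretch, at 50.8%, and strong regions of the third are kept at 86.5% and 90.4%.

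The counts of regions by class also differed between the stretches. Regions in all lists but K43M replicate 2 numbered 28, 26, 8 and 14 in the 4 stretches, and those in all lists but K43M replicate 1 numbered 7, 0, 7 and 26. Per 100 regions in all 4 lists the former were 14.1, 20.8, 12.3 and 4.46 and the latter 3.54, 0, 10.8 and 8.28. The other autosomes held 9.032 of the former and 3.165 of the latter. Regions missing only in K43M replicate 2 were thus more frequent in the first stretch, where its median was near WT, than in the third. On the same scale, regions only in WT were 13.6, 6.40, 23.1 and 17.8, and regions only in K43M were 28.3, 8, 6.15 and 14.7. Their counts were 27, 8, 15 and 56 only in WT and 56, 10, 4 and 46 only in K43M. The other autosomes held 10.7 only in WT and 18.5 only in K43M. Relative to shared regions, those only in WT were thus most frequent in the third stretch, where both K43M medians were low. Those only in K43M were most frequent in the first, where both medians were near WT although window 9 was low. A peak lost from a K43M list also lowers the number of shared regions, the base of these rates. The borders were placed on differences of the same lists, so the rates are descriptions.

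The strongest regions only in WT, ranked by the lower of their WT percentiles, were in or near 5 genes. The region at the first start of *Dglucy*, a mitochondrial D-glutamate cyclase, was 1217 bp wide, with fold enrichments of 6.99 and 7.48 in the WT lists. The region at the internal start of *Cep128*, a centriolar gene, had 10.0 and 8.10, and its nearest K43M peak was 199383 bp away. The region in *Tmem229b* had 7.68 and 6.93, that in *Gm36660* 9.60 and 8.50, and that at *Gm48693* 14.6 and 9.84. The regions of *Tmem229b* and *Gm36660* lie in the third stretch, those of *Dglucy* and *Cep128* in the fourth and that of *Gm48693* in the first. The strongest regions only in K43M were at *Pfn4* and *Fam228b*, near *Gm8332*, at *Rhob*, in *Dglucy* and at *Map3k9*, with fold enrichments from 8.71 to 11.3. Those at *Pfn4* and *Rhob* lie in the first stretch and the others in the fourth.

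At the level of genes, few promoters were lost. Of the 617 protein-coding genes of the chromosome before 113 Mb, 351 had a promoter peak in all 4 lists, which is 56.9% against 47.6% of all genes, and 208 had none. In every stretch the share of genes with a promoter peak was similar in the lists, between 60.4% and 67.9% in the third. Only *Asap2*, which encodes a GTPase-activating protein for ARF, had a promoter peak only in WT (0.515% of all genes had this pattern), with fold enrichments of 10.3 and 6.82 and pileups of 33 and 14 fragments. It lies in the first stretch, outside the low stretches of either K43M line. A promoter peak was missing only in K43M replicate 2 at 4 genes (0.642% of all genes). At *Gm266* the other lists had pileups of 79, 62 and 48, and at *Gm20403* of 43, 33 and 25. At *Arg2*, a mitochondrial arginase, they were 17, 11 and 10, and at *Rsad2*, the antiviral protein viperin, 19, 16 and 9. Of these, *Gm20403* lies in the second stretch and *Arg2* in the third, while *Gm266*, with the most fragments, lies in the fourth and *Rsad2* in the first, where the median of K43M replicate 2 was near WT. A promoter peak was missing only in K43M replicate 1 at *Noxred1* and *Papln* (0.173% of all genes), both in the fourth stretch, where that line was low. The other lists had pileups of 16, 19 and 13 at *Noxred1* and of 22, 16 and 10 at *Papln*. Apart from *Gm266*, the promoters missing from a single K43M list had at most 43 fragments in any list.

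Promoter peaks only in K43M were found at 12 genes, 1.94% against 2% of all genes, so that the share was that of the genome. *Pfn4*, a profilin, and *Fam228b* share a peak, with pileups of 41 and 39 fragments and fold enrichments of 11.3 and 11.3 in K43M replicate 1 and K43M replicate 2. *Rhob*, a small GTPase, had pileups of 54 and 30, and *Map3k9*, a kinase upstream of JNK, had 33 and 27. *Eml1*, *Rps6kl1*, *Vash1*, *Vrtn*, *Coch*, *Lsmem1*, *Foxa1* and *Kif26a* had between 9 and 26 fragments. By stretch, 4 of the 12 lie in the first, 2 in the second and 6 in the fourth, and none lies in the third. *Foxa1*, a transcription factor of endoderm, and *Coch* lie where K43M replicate 2 was low. Their peaks had 9 and 11 fragments in that list against 26 and 19 in K43M replicate 1. *Rhob* was also weaker in K43M replicate 2, although the median of that list was near WT in the first stretch. In the fourth stretch, where K43M replicate 1 was low, *Map3k9* was stronger in that list. *Eml1*, *Rps6kl1*, *Vash1*, *Vrtn* and *Kif26a*, also in the fourth, had fewer fragments in K43M replicate 1.

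Some genes had a peak in all 4 lists but not at the same start. At 23 of the 351 genes the best promoter peaks of the lists lay over 1000 bp apart, and at 5 of these the WT lists shared a place and the K43M lists another. The 5 were singled out after their values had been seen. Neither count was computed over all genes, so it is not known whether the shares are unusual. At *Dglucy* the WT peak stood at the first start and the K43M peak 86.8 kb away, with pileups of 60 and 59 fragments at the former and of 28 and 32 at the latter. The background around the first start was also unlike. A region 2391 bp before it, with a peak in all 4 lists, had 418, 380, 99 and 121 read ends per 10 kb. At *Eml5*, a relative of microtubule-binding proteins, a weak peak of 13 and 12 fragments was found only in WT and a peak of 33 and 21 fragments only in K43M, 101.0 kb apart. At *Dlst*, the E2 subunit of the 2-oxoglutarate dehydrogenase complex, the place best in WT, which also covers *Prox2*, had 51, 48, 34 and 30 fragments and a start 19.9 kb on had no peak, 10, 29 and 26. At *Fntb*, a subunit of farnesyltransferase, both places had peaks in all 4 lists. The start that was the best in WT had 76, 57, 30 and 23 fragments and the other, at the start of *Churc1*, 47, 35, 33 and 22. *Gpr132*, a receptor of lymphocytes, had 40, 35, 10 and 14 fragments at the start that was best in WT and 34, 30, 16 and 19 at the other. Gene-level counts do not show such differences.

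The 10 genes with the highest lowest fold enrichment among promoters in all 4 lists in low windows were *Ddx24*, *Npc2*, *Isca2*, *Gpatch2l*, *Nrde2*, *Mthfd1*, *Numb*, *Lgmn*, *Mpp5* and *Golga5*. *Ddx24*, an RNA helicase, had fold enrichments of 15.4, 15.1, 17.1 and 15.9 on pileups of 107, 92, 87 and 78 fragments. *Npc2*, a lysosomal cholesterol carrier, and *Isca2*, a mitochondrial iron-sulfur cluster protein, share a peak with 15.7, 15.6, 15.8 and 14.4. *Nrde2* had 15.3, 16.8, 13.8 and 13.7, with pileups of 81, 84, 40 and 51. *Lgmn*, a lysosomal protease, had 12.6, 15.1, 13.1 and 14.9. These promoters had a fold enrichment of at least 12.4 in every list.

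Gene lists were compiled for functions with several genes on the chromosome. All 13 genes of protein synthesis and turnover had a promoter peak in all 4 lists, *Rps29* and *Psma6* among them. Of 16 cell cycle and DNA repair genes 15 had one, among them *Rrm2* and *Rad51b*, and *E2f6* had weak peaks in all but WT replicate 2, with 11, 7 and 7 fragments. Of 24 lymphoid and immune regulators 19 had one. *Rsad2* lacked a peak in K43M replicate 2, *Evl* lacked one in WT replicate 2 and had 27, 22 and 20 fragments in the others, *Tnfaip2* had one only in K43M replicate 2 with 11 fragments, and *Tcl1* and *Bcl11b* had none. Of the 5 genes of the AP-1 and MYC network 4 had one, and *Jdp2* had 10, 22 and 25 fragments in all but WT replicate 2. *Fos* had fold enrichments of 9.44, 9.84, 8.26 and 8.76, and *Batf*, an AP-1 factor of lymphocytes, had 8.73, 8.49, 5.51 and 5.50 on pileups of 32, 35, 14 and 19, with both K43M lists below both WT lists.

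Of the 14 mitochondrial and metabolic genes found, 10 had a promoter peak in all 4 lists, and *Slc25a21*, *Acot1*, *Cox8c* and *Ckb* had none. *Coq6*, an enzyme of coenzyme Q synthesis, had fold enrichments of 12.3, 12.2, 12.7 and 12.4. Of 14 kinase signalling genes 12 had a peak in all 4 lists, *Map3k9* only in K43M and *Prkd1* in none. Of 22 genes of other tissues 16 had none, such as *Nkx2-1*, *Pax9* and *Dlk1*. *Etv1*, *Nrxn3* and *Tshr* had one in all 4 lists, the last being the promoter that *Tshr* shares with *Cep128*. *Foxa1* had one only in K43M and *Sostdc1* had 12 fragments in K43M replicate 2 alone.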

How the data were processed

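ATAC-seq peak lists of 4 mouse cell lines were analysed. Per the submitters' processing notes and methods, the authors trimmed reads with Trimmomatic 0.36, mapped them to mm10 with BWA 0.7.15, removed blacklisted and ambiguous reads (SAMtools 1.3.1) and called peaks per library with MACS2 2.1.0. Per peak, the deposited values are fold enrichment and the p-value and q-value as -log10. Fold enrichment is the ratio of summit to background, with a constant added to each. Reads were not analysed, and the depth is unknown.

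Peaks overlapping by 1 bp were merged over the lists. Pileup and background were recovered from fold enrichment and -log10 p under the MACS2 Poisson model (100% of peaks in every list) with scripts (Python 3.11.15, numpy 2.4.6, scipy 1.17.1) tested on simulated data. Promoters ran from 2000 bp before to 200 bp after GENCODE M21 starts, and sequences are from the RefSeq GRCm38 genome. Results were recomputed with other peak thresholds, overlaps, promoter widths, windows and references, and with each library left out. Members and gene lists were chosen with earlier results of these data known. Named genes were those with promoter peaks in only WT or only K43M, the 10 best kept promoters in low windows, the 5 best regions per genotype and listed genes that were not open in all lists with 2 examples of the rest. Other genes beside the changes of background, and the stretches, were chosen after seeing the data. A few genes are not reported here.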

Additional observations from a re-analysis of the deposited data

How the results depend on the processing

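Of the 54 planned values, 33 stayed within the limits set for them. Counts were compared within 1.5 times and levels within the spread of the lines. Regions only in WT ranged from 147 to 243, and those only in K43M from 173 to 295, when a library was left out. Leaving out a library removes a condition of these classes, so a rise is built into the rule. Promoters only in WT were 4 with a -log10 q of at least 5, 3 with the same number of peaks per list and 2 within 500 bp of a start, and 3 to 6 with a library left out. Promoters only in K43M were 15 to 23 with a library left out and 11 to 14 under the other alternatives. The background difference was -0.18 away from promoters. The pileup difference was -0.25 at promoters and -0.20 relative to autosomes other than 12, 13 and 18. Low windows numbered 13 of 38 with 2 Mb windows, 8 at a difference of 0.1 and 3 at 0.3. Of alternatives added after seeing the data, regions away from promoters moved the change of K43M replicate 1 from 73.83 to 76.44 Mb and those of K43M replicate 2 from 49.93 to 41.53 Mb and from 80.77 to 82.33 Mb. Near 0, the sign turned for K43M replicate 1 in the first stretch without WT replicate 2 (-0.016, and 0.021 without WT unnumbered) and for K43M replicate 2 in the fourth away from promoters (0.049, from -0.0053). The cause was not tested. Merging at 100 bp does not enter promoter counts. No paired analysis was possible because the genotypes share fewer than 2 replicate numbers.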
